A study of Mus musculus with 28 samples.

Results

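The guanylate binding proteins (GBPs) and immunity-related GTPases (IRGs) measured here are 10 genes, Gbp2, Gbp3, Gbp4, Gbp5, Gbp6, Gbp7, Gbp8, Gbp9, Igtp and Irgm1, taken by symbol from a table of 25124 genes. Their transcripts were followed in mouse CD4+ T cells of the lamina propria of the small intestine (SILP), sorted as live cells positive for CD45, CD90.2, TCRb and CD4. Every mouse carried the T-bet-ZsGreen reporter, in which a green fluorescent protein marks expression of the transcription factor T-bet, and the sort did not select on ZsGreen. The mice were specific-pathogen-free (SPF), and so colonised by microbes, or germ-free (GF), and were given anti-CD3 (aCD3), an antibody to a signalling part of the T cell receptor, or its isotype control. There were 6 SPF isotype libraries and 6 SPF aCD3 libraries, each set with 3 from females, 10 GF isotype libraries with 5 from females, and 6 GF aCD3 libraries with 1 from a female. Libraries are called by the sex letter and number of their label, as in F1 or M3. The dose, the time after injection and the ages of the mice are not given in the sources used here, nor whether a library is 1 mouse, so p-values measure only the spread between these libraries.

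GBPs and IRGs are large GTPases of cell-autonomous immunity, made by many cell types after exposure to interferons, above all interferon-gamma. They assemble on the vacuoles of intracellular parasites and bacteria, disrupt them and, for several GBPs, promote inflammasome activation. Igtp (also called Irgm3) and Irgm1 are regulatory IRGs, which sit on the cell's own membranes and keep the effector IRGs from acting there. T cells make interferon-gamma and also respond to it through the receptor subunits Ifngr1 and Ifngr2 and the kinases Jak1 and Jak2. The promoter element of this route is called GAS, whereas Stat2 with Irf9 and the IRF factors act at the interferon-stimulated response element (ISRE), the main route of type I interferon.

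The genes lie in clusters. On chromosome 3 of the mouse build mm10, the table places Gbp5 at chr3:142496934-142522344, Gbp7 at chr3:142530336-142550151, Gbp3 at chr3:142560356-142573213 and Gbp2 at chr3:142620663-142638008, all on the plus strand. On chromosome 5 it places Gbp8 at chr5:105014153-105053561, Gbp9 at chr5:105076466-105110292, Gbp4 at chr5:105115767-105139586 and Gbp6 at chr5:105270702-105293699, all on the minus strand. On chromosome 11, Irgm1 lies at chr11:48865245-48871420 on the minus strand and Igtp at chr11:58199556-58207592 on the plus strand. Members of such clusters are near copies of each other in places, so their transcripts were compared in windows of 150 bases, the read length. Of the windows of Gbp6, 76.46% occurred word for word in Gm43302 or Gbp10, so its reads cannot be assigned with certainty. The share was 8.77% for Gbp7 (with Gm43802), 0.74% for Igtp (with Irgm2), 0.04% for Gbp4 (with Gbp11) and 0 for the other 6 genes. The microRNA gene Mir6381, 86 bases on the opposite strand, lies within Gbp2 and held at most 34 reads in any library, against at least 731 for Gbp2.

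Promoter sequences from RefSeq, build GRCm38.p6 (the assembly of mm10), were at hand for 6 of the 10 genes. Gbp3 has 2 annotated starts. The 250 bases before each start were searched on both strands for the ISRE core GAAANNGAA and for the GAS motif TTCNNNGAA, each 9 bases long. All 6 genes held an ISRE core, Gbp3 before the first of its starts only. Of 32851 windows of the same length before all annotated starts, 7.13% held one. That share counts single windows, and the 6 genes had 7. The position of Gbp3 measured here begins at the second start, chr3:142560356, and the window before it held no ISRE core. Gbp5, Gbp7 and Igtp also held a GAS motif, found in 7.02% of all windows, and 0.752% of all windows held both. Gbp2, Gbp3 and Irgm1 showed no GAS letters in these windows. A match is a description of the letters and not a measured binding site. The last 180 bases before the start are printed for Gbp2, Gbp3 (first start) and Gbp7, 3 chromosome 3 genes that differed after aCD3. They are also printed for Igtp, the member with the highest level per base of gene span. All read 5′ to 3′ on the gene's strand with motif matches in capitals. An ISRE core on the opposite strand reads there as its reverse complement, as in TTCAGTTTC.
Gbp2, chr3:142620483-142620662, 1 ISRE core from 58 to 50 bases before the start: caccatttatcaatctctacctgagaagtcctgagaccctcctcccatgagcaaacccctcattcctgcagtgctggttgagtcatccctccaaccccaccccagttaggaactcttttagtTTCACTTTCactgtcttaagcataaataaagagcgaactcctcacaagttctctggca
Gbp3, chr3:142559864-142560043, 2 ISRE cores that overlap, from 44 to 36 and from 38 to 30 bases before the start: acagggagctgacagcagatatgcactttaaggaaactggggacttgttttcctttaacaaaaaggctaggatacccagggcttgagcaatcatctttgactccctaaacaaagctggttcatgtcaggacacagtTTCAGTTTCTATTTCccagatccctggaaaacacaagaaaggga
Gbp7, chr3:142530156-142530335, GAS motifs from 106 to 98 and from 87 to 79 and an ISRE core from 52 to 44 bases before the start: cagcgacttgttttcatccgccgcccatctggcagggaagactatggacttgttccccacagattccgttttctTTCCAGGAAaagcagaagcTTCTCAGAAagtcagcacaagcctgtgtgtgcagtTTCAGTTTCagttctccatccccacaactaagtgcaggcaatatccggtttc
Igtp, chr11:58199376-58199555, a GAS motif from 45 to 37 and an ISRE core from 34 to 26 bases before the start: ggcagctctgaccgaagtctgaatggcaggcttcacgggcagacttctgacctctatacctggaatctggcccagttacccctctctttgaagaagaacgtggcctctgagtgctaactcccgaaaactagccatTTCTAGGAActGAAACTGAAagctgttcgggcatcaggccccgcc

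**Figure D1:**
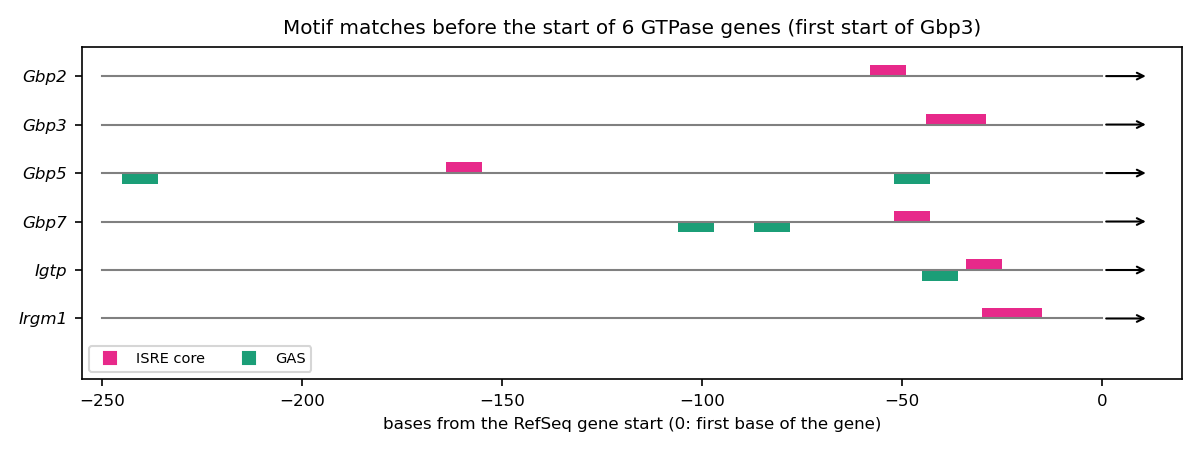
Positions of motif matches in the 250 bases before the RefSeq start of 6 GTPase genes; the horizontal axis is in bases from the start. Pink boxes above the lines are ISRE cores, present in all 6. Green boxes below the lines are GAS motifs, present in Gbp5, Gbp7 and Igtp. The boxes of Gbp3 and Irgm1 each join 2 overlapping ISRE cores. Gbp3 is drawn before the first of its starts, and the gene as measured here begins at the other start.

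Levels are given in TPM, a share of the library's transcripts after division by gene length. Here that length was the genomic span with introns, so a level is per base of span. The order of genes below is thus one per base of span and not one of transcript numbers. In SPF isotype, Irgm1, with a span of 6.2 kb, had 1120 reads on average, and Gbp8, with 39.4 kb, had 1727. Reads in genes numbered 6765529 to 17860609 per library. Every member was detected in every library, with 366 to 4820 reads each. In SPF isotype the order ran from Igtp (135.3 TPM ± 16.9, SD, n = 6) and Irgm1 (104.4 ± 17.99) through Gbp7 (82.1 ± 8.73), Gbp2 (61.9 ± 4.26), Gbp4 (57.0 ± 6.73), Gbp9 (40.7 ± 7.63), Gbp3 (39.4 ± 4.99), Gbp6 (31.97 ± 7.62) and Gbp8 (25.4 ± 6.31) down to Gbp5 (13.1 ± 1.21). The ranges of neighbours in this order overlapped except between Gbp7 and Gbp2 and between Gbp8 and Gbp5, and Gbp9 and Gbp3 could not be ranked, since Gbp9 was the higher in 3 of 6 libraries. In GF isotype the order was the same apart from Gbp3 and Gbp9, which exchanged places with 44.6 ± 6.44 and 44.0 ± 5.76 (n = 10).

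After aCD3 in SPF mice the order changed. Per base of span, Gbp3 moved from rank 7 in SPF isotype up to rank 4, at 51.95 TPM ± 5.06. In TPM it was above Gbp2 (34.1 ± 4.40) in 6 of 6 libraries. Gbp8 became the lowest member at 7.24 ± 0.94. Igtp (113.9 ± 19.5), Gbp7 (106.2 ± 13.4) and Irgm1 (100.3 ± 27.5) had overlapping ranges at the top. Summed over the 10 genes the level was 591.4 TPM ± 67.5 without and 526.5 ± 72.9 with aCD3 in SPF mice, and 672.3 ± 78.5 without and 567.9 ± 67.0 with it in GF mice.

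**Figure D2:**
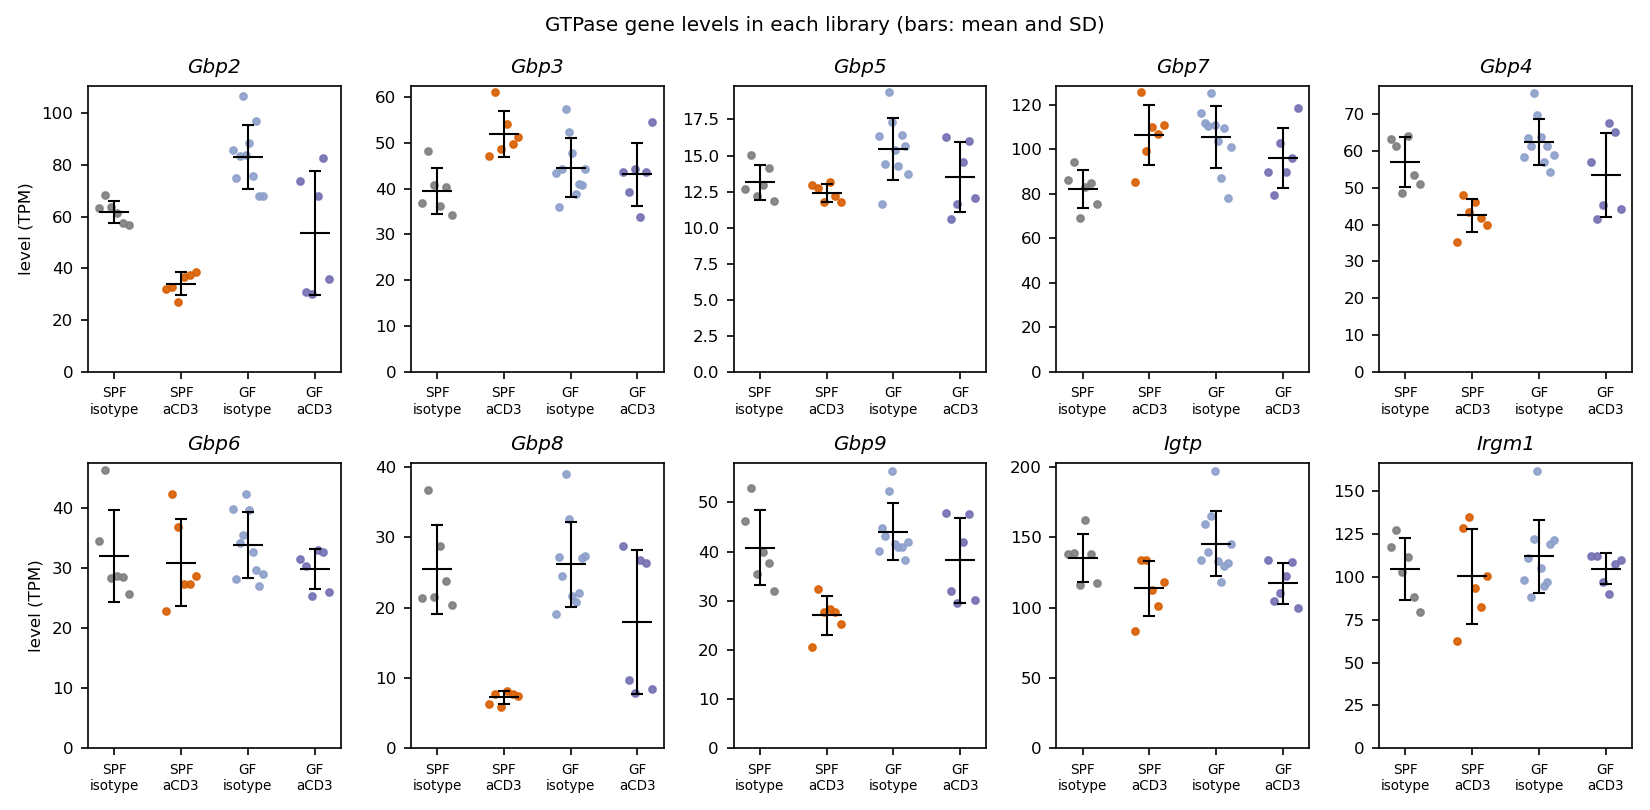
Level in TPM of each of the 10 GTPase genes (vertical axes from 0) in every library of SPF isotype (n = 6), SPF aCD3 (n = 6), GF isotype (n = 10) and GF aCD3 (n = 6); points are libraries, bars the mean and SD. Gbp2, Gbp8 and Gbp4 were lower in all 6 SPF aCD3 libraries than in any SPF isotype library, in a comparison where 50.7% of all genes were called lower. The log2 fold change of Gbp4 was -0.01 after median-of-ratios scaling. The GF aCD3 points of Gbp2 and Gbp8 fall into a low and a high cluster.

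The first comparison asked how the GTPase genes differed between SPF mice given aCD3 and those given the isotype antibody. Of the 10 genes, 4 fell (Gbp8, Gbp2, Gbp9 and Gbp4), 2 rose (Gbp3 and Gbp7) and 4 did not pass the test (Gbp5, Gbp6, Igtp and Irgm1). The test was limma on log2(TPM + 1) over all 28 libraries with Benjamini-Hochberg adjustment over 12182 genes at 0.05, and the same test called 14.2% of all genes higher and 50.7% lower. The share of members that fell thus lay below the background and the share that rose above it, with counts too small to read further. The median log2 fold change was -0.17 over the members and -0.35 over all genes tested.

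A shift of all genes of this size matters for direction, so each fold change was also computed after scaling libraries by the median of ratios, which brings the median of all genes to -0.01. On that scale 30.2% of all genes were higher and 29.8% lower, and of the members 2 were lower (Gbp8 and Gbp2) and 4 higher (Gbp3, Gbp7, Gbp5 and Gbp6), with a member median of 0.24. Gbp8 and Gbp2 were thus lower, and Gbp3 and Gbp7 higher, on both scales. Gbp4 and Gbp9 passed in TPM and not after this scaling, and Gbp5 and Gbp6, slightly below 0 in TPM, passed as higher after it. Under quantile normalization, another scaling, Gbp4 (-0.20, limma adjusted p = 0.0391) and Gbp9 (-0.30, adjusted p = 0.0129) were lower and Gbp5 (0.25, adjusted p = 0.0162) higher, and Gbp6 did not pass (0.21, adjusted p = 0.15). Beside this shift, 84 histone genes took 4.05% to 9.54% of summed TPM in the isotype libraries and 24.1% to 27.1% in the SPF aCD3 libraries, and their part in the fold changes was not tested beyond the removal of these genes given with the processing alternatives.

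Gbp8, one of the chromosome 5 GBPs, moved furthest. Its level ran from 20.3 to 36.7 TPM in SPF isotype (median 22.7) and from 5.86 to 8.22 in SPF aCD3 (median 7.64). No aCD3 library reached the lowest isotype library. The share of all genes with groups as separate was not computed, here or for the members below, and 50.7% of all genes were called lower. The log2 fold change was -1.66 ± 0.26 (SE; limma adjusted p = 1.14e-05), and -1.29 after median-of-ratios scaling (adjusted p = 1.11e-05).

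Gbp2, which is recruited to pathogen vacuoles and acts in inflammasome activation, ran from 56.9 to 68.4 TPM in SPF isotype (median 62.3) and from 26.9 to 38.4 in SPF aCD3 (median 34.8). All 6 aCD3 libraries lay below all isotype libraries. The log2 fold change was -0.85 ± 0.19 (limma adjusted p = 0.000477), and -0.44 after scaling (adjusted p = 0.0155).

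Gbp3, of the same chromosome 3 cluster, went the other way. It ran from 34.3 to 48.2 TPM in SPF isotype (median 38.6) and from 47.0 to 61.0 in SPF aCD3 (median 50.5). The groups met only at isotype library F2, and 5 of 6 aCD3 libraries were above every isotype library. The log2 fold change was 0.39 ± 0.11 (limma adjusted p = 0.00258) in TPM and 0.80 after scaling (adjusted p = 4e-05).

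Gbp7, known for restricting parasite vacuoles and for its part in assembling the phagocyte oxidase, behaved like Gbp3. It ran from 69.2 to 94.2 TPM in SPF isotype (median 83.8) and from 85.1 to 125.5 in SPF aCD3 (median 108.4), with 5 of 6 aCD3 libraries above all isotype libraries. The log2 fold change was 0.37 ± 0.11 (limma adjusted p = 0.00516), and 0.78 after scaling.

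Gbp4 and Gbp9, of the same cluster as Gbp8, fell by less, and their calls depended on the scaling. Gbp4 ran from 48.6 to 64.1 TPM in SPF isotype (median 57.6) and from 35.3 to 48.1 in SPF aCD3 (median 42.7), without overlap. Its log2 fold change was -0.41 ± 0.11 (limma adjusted p = 0.00229) in TPM but -0.01 after scaling (adjusted p = 0.94). Gbp9 ran from 32.04 to 52.9 TPM (median 38.9) and from 20.6 to 32.4 (median 27.8), with 5 of 6 aCD3 libraries below all isotype libraries, and its log2 fold change of -0.57 ± 0.12 (adjusted p = 0.000356) became -0.17 after scaling (adjusted p = 0.134).

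The remaining genes did not pass the test in TPM. Gbp5, which promotes assembly of the NLRP3 inflammasome, had medians of 12.8 TPM in SPF isotype and 12.5 in SPF aCD3, and its log2 fold change was -0.07 in TPM (limma adjusted p = 0.554; 95% interval -0.28 to 0.14) and 0.32 after scaling (adjusted p = 0.00265). For Gbp6, whose reads are shared with other genes, the values were -0.05 (adjusted p = 0.747) and 0.35 (adjusted p = 0.0205). The regulatory IRGs spread widely among aCD3 libraries. Igtp ran from 116.4 to 162.2 TPM in SPF isotype (median 138.3) and from 83.6 to 134.3 in SPF aCD3 (median 115.2), a log2 fold change of -0.26 ± 0.12 in TPM (limma adjusted p = 0.0586) and 0.16 after scaling (adjusted p = 0.19). Irgm1 ran from 79.4 to 127.2 TPM (median 107.1) and from 62.5 to 134.7 (median 96.9), a log2 fold change of -0.09 ± 0.15 (adjusted p = 0.626) in TPM and 0.32 after scaling (adjusted p = 0.0962). The direction of both thus turned with this scaling, with neither value past the threshold. In TPM, Igtp passed as lower with array weights (-0.27, adjusted p = 0.0228) and without SPF isotype F3 (-0.31, adjusted p = 0.025), SPF aCD3 F2 or F3, or GF isotype F5. Both had their lowest aCD3 value in F1 and their values above 128 TPM in F2 and F3.

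**Figure D3:**
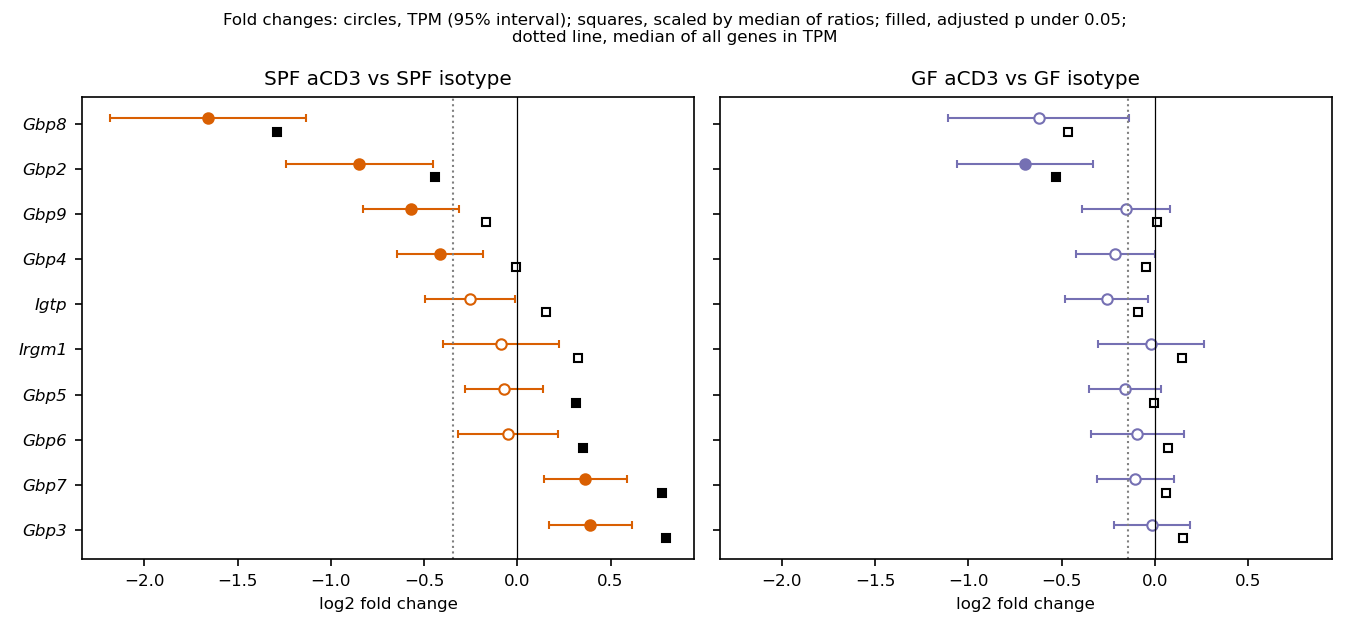
Log2 fold change of each GTPase gene after aCD3 in SPF (left) and GF (right) mice: circles are TPM values with 95% intervals, squares are values after median-of-ratios scaling, filled symbols passed the test at an adjusted p of 0.05, and the dotted line is the median of all genes in TPM. In SPF, Gbp8 and Gbp2 are on the left and Gbp3 and Gbp7 on the right of 0 on both scales; in GF, Gbp2 is the filled symbol.

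A ratio of 2 genes within a library does not change when the library is multiplied by a single factor, as in median-of-ratios scaling. Gbp2 and Gbp3 belong to the chromosome 3 cluster, and the pair was chosen after their values were seen, so the ratios describe how far they diverged and carry no test. The log2 ratio of Gbp2 to Gbp3 ran from 0.50 to 0.78 in SPF isotype (0.66 ± 0.12, SD, n = 6) and from -0.90 to -0.40 in SPF aCD3 (-0.61 ± 0.22, n = 6). Per base of span, Gbp2 was thus the higher of the pair in 6 of 6 SPF isotype libraries and in 0 of 6 SPF aCD3 libraries. Which gene is the higher depends on this division by span. In reads, Gbp2 exceeded Gbp3 in SPF aCD3 M2 (1100 and 1077) and M3 (1066 and 1053), and was below it in F1, F2, F3 and M1. The mean log2 ratios differed by -1.27, a difference that the spans do not change.

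The ratio of Gbp8 to Gbp9, of the chromosome 5 cluster and with no windows shared with other genes, was chosen in the same way. Its log2 value ran from -1.11 to -0.47 in SPF isotype (-0.69 ± 0.22, n = 6) and from -2.25 to -1.71 in SPF aCD3 (-1.90 ± 0.21, n = 6). The groups did not overlap, and the means differed by -1.21. In these SPF libraries the 2 genes of each pair thus changed unequally, whichever single factor scales each library; the ratios were not computed under quantile normalization.

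**Figure D4:**
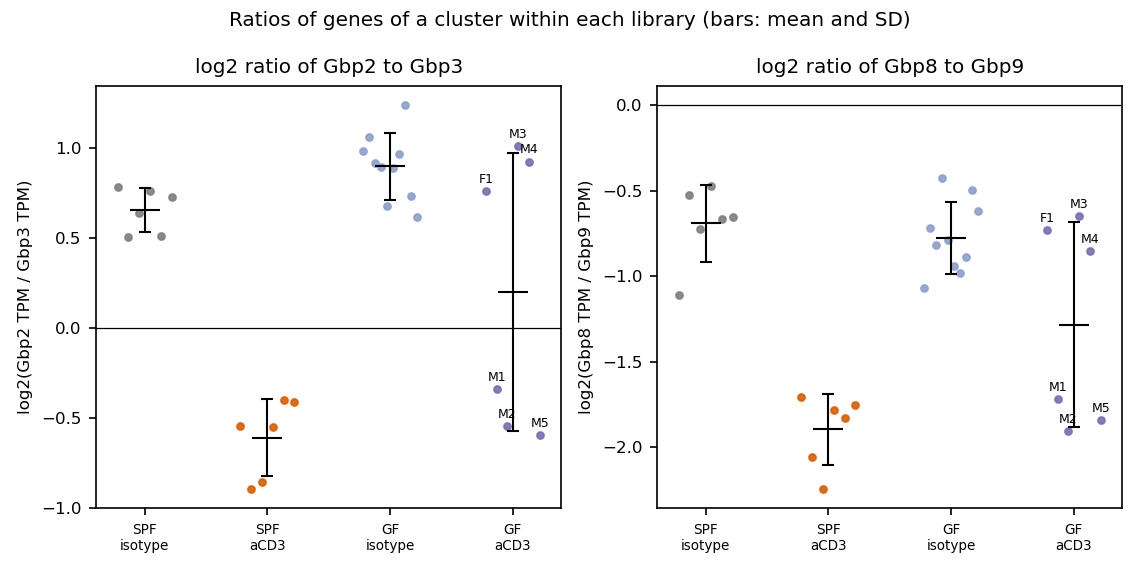
Log2 ratio of Gbp2 to Gbp3 (left) and of Gbp8 to Gbp9 (right) in each library by group, with mean and SD. GF aCD3 libraries carry their names, and the line marks equal TPM, that is, equal levels per base of span. The SPF groups do not overlap, and in GF aCD3 the libraries M1, M2 and M5 lie in the range of SPF aCD3 or near it while F1, M3 and M4 lie in the range of the isotype libraries.

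In germ-free mice the same comparison called 1 of the 10 genes, Gbp2, as lower, with 4.61% of all genes lower and 2.46% higher. The member median was -0.16 and the median of all genes -0.15. After median-of-ratios scaling Gbp2 was again the called member, with 4.02% of all genes lower and 5.62% higher, and the medians were 0.00 and -0.01. Its level ran from 67.9 to 106.6 TPM in the 10 GF isotype libraries (median 83.8). In GF aCD3 it was 73.9 in F1, 30.9 in M1, 30.3 in M2, 68.1 in M3, 82.9 in M4 and 35.9 in M5. M1, M2 and M5 lay below every isotype library and the other 3 within the isotype range. The log2 fold change was -0.70 ± 0.18 (limma adjusted p = 0.0481), and -0.53 after scaling (adjusted p = 0.0399).

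This call sits at the threshold. Leaving out any of 25 of the 28 libraries moved the adjusted p of Gbp2 above 0.05, and in those 25 fits limma called 0 of all genes in this comparison, against 862 with all libraries. The other 3 fits, without GF aCD3 F1, M3 or M4, called 3630 to 4213 genes. The loss is thus one of the whole comparison and not particular to Gbp2. With all libraries, 4 members and 35.7% of all genes had an unadjusted p under 0.05, and voom on recovered reads called 1 member and 7.54% of all genes. Without the GF aCD3 libraries in turn, its log2 fold change ran from -0.57 (without M2, adjusted p = 0.177) to -0.84 (without M4, adjusted p = 0.0104). GF libraries fall into 2 runs of column numbers, 25 to 33 and 48 to 54, each with 3 aCD3 libraries. Within the first run (M1, M2 and M3 against 6 isotype libraries) the log2 fold change of Gbp2 was -1.10 ± 0.28 (limma adjusted p = 0.302), and within the second (M4, M5 and F1 against 4) it was -0.33 ± 0.29 (adjusted p = 0.734).

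In TPM, Gbp8, Gbp4, Gbp9 and Igtp showed the same 3 low libraries without passing the test. The share of all genes low in these 3 libraries was not computed. Gbp8 stood at 28.8 TPM in F1, 9.72 in M1, 7.90 in M2, 26.8 in M3, 26.4 in M4 and 8.42 in M5, against 19.1 to 39.0 in GF isotype (median 25.8), and its log2 fold change was -0.62 ± 0.24 (limma adjusted p = 0.0744). The low values are close to the SPF aCD3 range of 5.86 to 8.22. Gbp4 (41.5, 45.5 and 44.2 TPM in M1, M2 and M5) and Gbp9 (32.01, 29.6 and 30.2) lay below all isotype libraries in the same 3, and their fold changes were -0.21 (adjusted p = 0.139) and -0.16 (adjusted p = 0.325) in TPM but -0.05 and 0.01 after scaling. Igtp (105.0, 110.1 and 99.9 TPM in M1, M2 and M5) also lay below all isotype libraries there, with a fold change of -0.26 in TPM and -0.09 after scaling. That of Gbp8 was -0.47 after scaling (adjusted p = 0.0884). Histone genes took 23.8%, 23.4% and 26.3% of summed TPM in M1, M2 and M5 and 5.67%, 7.79% and 6.71% in F1, M3 and M4. The labels place all 6 in 1 group. With Rn45s and the histone genes removed before TPM were recomputed, the GF log2 fold change was -0.54 for Gbp2 (limma adjusted p = 0.0406) and -0.48 for Gbp8 (adjusted p = 0.107).

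Gbp3 and Gbp7, higher in SPF mice after aCD3, gave log2 fold changes of -0.02 (95% interval -0.22 to 0.19; limma adjusted p = 0.91) and -0.11 (-0.31 to 0.10; adjusted p = 0.449) in GF mice. Gbp3 was highest in M5 (54.4 TPM) and lowest in M3 (33.7), and Gbp7 was highest in M5 (118.6) and lowest in M1 (79.4). Gbp5 (-0.16, adjusted p = 0.212), Gbp6 (-0.09, adjusted p = 0.582), Igtp (-0.26, adjusted p = 0.0945) and Irgm1 (-0.02, adjusted p = 0.92) also did not pass. The log2 ratio of Gbp2 to Gbp3 averaged 0.90 ± 0.19 in GF isotype (n = 10) and 0.20 ± 0.77 in GF aCD3 (n = 6), where it was 0.76 in F1, -0.34 in M1, -0.55 in M2, 1.01 in M3, 0.93 in M4 and -0.60 in M5. The means differed by -0.70, and by -0.97 and -0.37 within the 2 runs, with the same 3 libraries below every isotype library. The ratio of Gbp8 to Gbp9 differed by -0.51, and by -0.52 and -0.56 within the runs.

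Between GF and SPF mice given the isotype antibody, 1 member passed, Gbp7, as higher in GF, with 6.42% of all genes higher and 0.755% lower. Gbp7 ran from 77.9 to 125.3 TPM in GF isotype (median 110.1) against 69.2 to 94.2 in SPF isotype (median 83.8), and 8 of 10 GF libraries were above all SPF ones. Its log2 fold change was 0.35 ± 0.10 (limma adjusted p = 0.029) in TPM and 0.19 after scaling (adjusted p = 0.524). It also lost its call without SPF isotype F1, F3 or M3. F3 held the lowest Gbp7 value of its group (69.2 TPM). Rn45s took 22.9% of summed TPM in F3 and 13.15% to 14.9% in the other SPF isotype libraries. After scaling, limma called 0 of the 10 genes, with 0.517% of all genes higher and 1.16% lower; at an unadjusted p under 0.05 in TPM there were 3 (Gbp2, Gbp5 and Gbp7), with 25.5% of all genes, and voom on recovered reads called 0, with 1.85% of all genes. Gbp2 was above all SPF isotype libraries in 8 of 10 GF isotype libraries, with a log2 fold change of 0.41 ± 0.17 (adjusted p = 0.136). The log2 ratio of Gbp2 to Gbp3 was 0.24 higher in GF isotype, with 7 of 10 libraries above all SPF isotype libraries. All SPF libraries carry column numbers 1 to 12 and no GF library does, so colonisation and this run of numbers cannot be told apart.

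After aCD3, GF and SPF mice differed in 4 members, all higher in GF, with 48.9% of all genes higher and 4.46% lower. Gbp8 differed by 1.08 ± 0.26 on the log2 scale (limma adjusted p = 0.00214), Gbp2 by 0.56 ± 0.20 (adjusted p = 0.0194), Gbp9 by 0.53 ± 0.13 (adjusted p = 0.00199) and Gbp4 by 0.33 ± 0.11 (adjusted p = 0.0175). These means cover unlike libraries: in GF aCD3 M1, M2 and M5, Gbp2 lay within the SPF aCD3 range of 26.9 to 38.4 TPM and Gbp8, at 7.90 to 9.72, in or near its range of 5.86 to 8.22, while F1, M3 and M4 lay far above both. The median over all genes was 0.34 and over members 0.14. After scaling, with 16.1% of all genes higher and 16.7% lower, Gbp8 remained higher (0.70, adjusted p = 0.0135), and Gbp3 (-0.64), Gbp7 (-0.53), Gbp6 (-0.35), Igtp (-0.31) and Gbp5 (-0.26) were lower in GF. The call of Gbp2 was lost without GF aCD3 F1, M3 or M4, and that of Gbp4 without M3 or M4. This comparison shares its libraries with both aCD3 comparisons and is no separate evidence.

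Whether the response to aCD3 itself differed between GF and SPF mice was tested by the interaction. In TPM limma called 0 of the 10 genes, with 2.44% of all genes higher and 1.04% lower. At an unadjusted p under 0.05 there were 4, with 32.1% of all genes, and voom on recovered reads called 3 (Gbp3, Gbp7 and Gbp8), with 15.2% of all genes. The difference of the log2 fold changes, GF minus SPF, was -0.47 ± 0.15 for Gbp7 (limma adjusted p = 0.0591), -0.41 ± 0.15 for Gbp3 (adjusted p = 0.0758), 1.04 ± 0.35 for Gbp8 (adjusted p = 0.0667) and 0.41 ± 0.17 for Gbp9 (adjusted p = 0.104). After scaling, with 5.3% of all genes higher and 6.03% lower, Gbp7 (-0.71, adjusted p = 0.0183) and Gbp3 (-0.65, adjusted p = 0.0356) passed. For Gbp2 the difference was 0.15 ± 0.26 (95% interval -0.38 to 0.69; adjusted p = 0.703).

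Other genes of the interferon pathways were described from 5 lists. Of 19 type I interferon targets tested, 16 rose and 1 fell in SPF mice after aCD3, with a median log2 fold change of 1.23. The highest were Dhx58 (2.05 ± 0.33, an RNA sensor of the RIG-I family), Oas2 (1.93, a synthase of the RNase L activator), Bst2 (1.93, tetherin) and Cmpk2 (1.92), and the 1 that fell was Ddx58 (-0.49), which encodes RIG-I. After median-of-ratios scaling 18 of 19 were higher and Ddx58 did not pass (-0.09, adjusted p = 0.555). Of 11 other interferon-inducible GTPases, 6 fell, led by Tgtp1 (-1.52), Irgm2 (-1.30) and Gbp2b (-1.23), and 2 rose, Mx1 (1.05) and Mx2 (0.86), dynamin-like GTPases with antiviral activity; the same counts held after scaling. Of all genes 50.7% fell and 14.2% rose in TPM, and 29.8% and 30.2% after scaling, so in TPM the counts of this list lie near the background. Tgtp1 and Tgtp2 (-0.94) are close copies, so their split is uncertain.

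The list of interferon-gamma pathway genes was also mixed. It includes Stat2, Irf9 and Usp18, which belong to type I interferon signalling. Stat2 and Usp18 were among the genes of this list that rose. Of 15 pathway genes, 8 fell and 4 rose in TPM, and 4 fell and 6 rose after scaling, beside the same shares of all genes as for the members. On both scales Irf8 (1.36), Usp18 (1.03), Ifng (0.46) and Stat2 (0.30) were higher, and Jak2 (-1.28), Irf1 (-0.94), Irf2 (-0.64) and Jak1 (-0.53) lower. Irf8 is a transcription factor that acts with Irf1 at many interferon-gamma targets, and Usp18 restrains type I interferon signalling. Of 12 other interferon-gamma targets, 7 fell and 1 rose in TPM and 4 fell and 3 rose after scaling: Nlrc5 (-1.73), the activator of MHC class I genes, Cxcl10 (-1.50), Cd274 (-0.90, PD-L1) and Tap2 (-0.62) were lower on both scales and Tap1 (0.37) was higher on both. Tap1 and Tap2 are the subunits of the peptide transporter, and they thus moved in opposite directions.

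Of 17 tested partners of the GTPases at the vacuole and the inflammasome, 11 fell and 2 rose in TPM, where 50.7% of all genes fell and 14.2% rose. After scaling 9 fell and 4 rose, beside 29.8% and 30.2% of all genes. The list median was -0.55 in TPM and -0.20 after scaling, and that of all genes -0.35 and -0.01. Casp1 (-1.24) and Casp4 (-1.22), the inflammasome caspases, and Atg12 (-0.93), of the conjugation system that places GBPs and IRGs on vacuoles, had the lowest values. Pycard (0.70), the inflammasome adaptor, and Arhgdia (0.46) rose.

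In GF mice few genes of these lists passed, beside 4.61% of all genes lower and 2.46% higher. The other GTPases gave 1 of 11 lower (Tgtp1, -0.58, which did not pass after scaling), the interferon-gamma pathway 1 of 15 lower (Irf1, -0.58, adjusted p = 0.0481), the other interferon-gamma targets 1 of 12 lower (Cd274, -0.61) and the partners 2 of 17 lower (Atg3, -0.48, and Gabarapl2, -0.45) and 1 higher (Arhgdia, 0.26). Of the type I targets, limma called 0 of 19, with a median of 0.31. At an unadjusted p under 0.05 there were 3 higher and 1 lower, beside 35.7% of all genes in either direction, and voom called 0, beside 7.54% of all genes. The interaction called 0 of these 19 in TPM, 8 as lower after scaling, beside 6.03% of all genes, and 12 as lower with voom, beside 15.2% of all genes in either direction. At an unadjusted p under 0.05, 13 were lower, beside 32.1% of all genes in either direction.

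**Figure D5:**
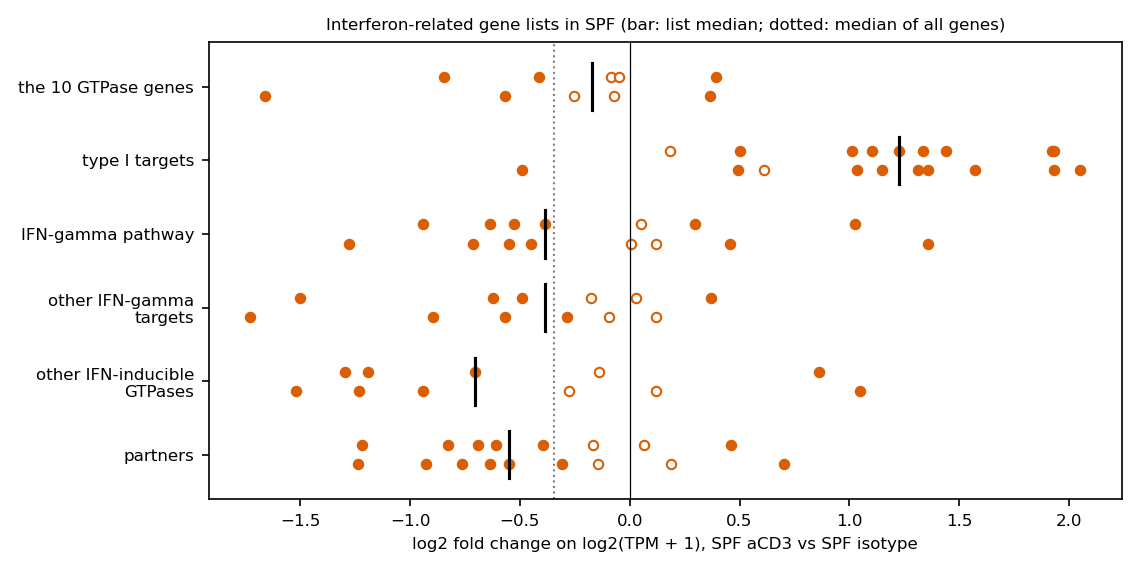
Log2 fold change on log2(TPM + 1) in SPF aCD3 against SPF isotype for the 10 GTPase genes and 5 lists of related genes; each circle is a gene, filled where the adjusted p was under 0.05, the bar is the list median and the dotted line the median of all genes. The type I interferon targets have a median of 1.23, to the right of the GTPase genes at -0.17.

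Among libraries of the same isotype group the members varied together to unequal degrees. Over the 16 isotype libraries, with group means removed, Pearson's r of log2(TPM + 1) had a median of 0.561 over the 45 pairs and ran from 0.114 to 0.821, the highest being Gbp4 with Gbp9. The 10 tested genes outside the family closest to its mean were Chchd5 (r = 0.9), Usp5 (0.891), Coa5 (0.883), Man2b2 (0.876), Parp14 (0.875), Parp9 (0.861), Dtx3l (0.853), Trim30a (0.851), Iigp1 (0.846) and Rtp4 (0.839). These libraries share depth and composition as well as biology, so the values are descriptions.

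The sorted cells carried the CD4 T cell markers at 1445 to 2077 summed TPM in every library, with all 8 detected in each group. Markers of other cells differed between groups and moved with each comparison of groups. Those of B and plasma cells summed to 96.6 to 275.4 TPM in SPF isotype, 3.02 to 10.6 in SPF aCD3, 11.3 to 119.6 in GF isotype and 8.34 to 102.0 in GF aCD3, with Jchain at 169.0 ± 66.3 in SPF isotype and 0.79 ± 0.57 in SPF aCD3, where Cd79b (4.62 ± 2.22) was the larger part. NK cell markers summed to 22.4 to 34.5 TPM in SPF isotype and 2.49 to 4.40 in SPF aCD3, and stromal markers to 4.42 to 42.1 and 0.47 to 2.28, with Col1a2 at 0 in SPF aCD3. Myeloid markers summed to 27.2 to 45.0 TPM in SPF isotype and 67.8 to 113.5 in SPF aCD3, a rise smaller than that of Cd68 by itself (5.99 ± 4.30 and 76.5 ± 19.6). Of the 6 of these 12 markers tested, Cd68 was higher and 3 were lower by limma: Mpeg1 (9.08 TPM in SPF isotype and 1.92 in SPF aCD3), Tyrobp (3.56 and 0.58) and Fcer1g (8.07 and 2.95). Adgre1 and Csf1r stayed at or under 0.38 TPM in both. Median sums in SPF isotype and SPF aCD3 were 8.11 and 17.1 TPM for CD8 T cell markers, 11.6 and 7.82 for epithelial markers and 9.58 and 3.51 for endothelial markers. In GF mice after aCD3, where Gbp2 was called, limma called 1 of 3 NK cell markers lower (Klrb1c, 22.1 TPM in GF isotype and 8.72 in GF aCD3) and 2 of 9 epithelial markers (Lgals4 and Cdh1, the latter 1.74 and 0.79). Between the isotype groups, where Gbp7 was called, 3 of 3 stromal markers were lower in GF (Dcn, Lum and Col1a1). So were 1 of 3 NK cell and 1 of 4 B and plasma cell markers, and these counts were the same after scaling. In TPM 2 of 8 CD4 T cell markers were higher, beside 6.42% of all genes, and 0 were higher after scaling. Between the aCD3 groups, where 4 members were called, Klrb1c, Jchain, Pecam1, Epcam, Xcr1, Mpeg1 and Lck were higher in GF and Cd68, Lum and Krt18 lower in TPM. There 48.9% of all genes were higher and 4.46% lower. After scaling, beside 16.1% and 16.7% of all genes, 1 myeloid marker was higher and 1 lower. Of the other lists 0 markers were then higher, and 4 CD4 T cell markers and 1 each of CD8 T cell, epithelial and stromal markers were lower. The part of these cells in the GTPase values was not tested, and in sorted bulk RNA fewer cells with a transcript and less RNA per cell cannot be told apart.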

How the data were processed

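The deposited table holds TPM, computed by the authors with HOMER's analyzeRepeats.pl over mm10 RefSeq genes with transcripts condensed to genes, per the file headers. In 99.24% of rows the length equals end minus start. The aligner's version, read filters and use of strand are not given in the sources used here. The labels name a total RNA kit and, elsewhere, polyA RNA. A further 26 TPM columns belong to no sample of the series and were not used. Whole reads were recovered from TPM times length (100% of low values whole within 0.1 read).

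Genes with at least 1 TPM in at least 6 libraries were tested (12182, including all 10 members) with limma 3.58.1 in R 4.3.3 on log2(TPM + 1), with group means and a sex term, a trend on mean expression and Benjamini-Hochberg adjustment. Adding 1 understates changes of low genes. Ratios of 2 members were taken within each library. The share of all genes whose groups did not overlap was not computed for any comparison. The alternatives used pseudocounts of 0.1 and 5, other filters and scalings, voom on recovered reads with trimmed-mean factors, array weights, other terms and each library left out.

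The named genes are all 10 members, the extremes past the threshold of 5 lists, with further genes of a list named as examples, and the 10 genes most like the family mean (Gm and Rik symbols left out). Members, lists and markers were chosen with earlier results of these data known, and the ratios and the fits within GF runs after seeing the data. Most comparisons share libraries.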

Additional observations from a re-analysis of the deposited data

Results flagged for a closer look

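Irgm1 stood apart in GF isotype F5, at 161.678 TPM, against 88.5 to 121.9 in the other 9 libraries of that group; the gap of that library to the nearest other was 0.544 of the group's range. The same check was made on 48 sets of values and marked 1, where about 1 in 20 (2.4 sets) would be marked by chance. Leaving F5 out changed no call of Irgm1.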

How the results depend on the processing

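Of 2020 alternative values of the 50 member fold changes, 1894 kept direction and side of the threshold or stayed short of it, 62 lost a call, 49 gained one and 15 reversed; 111 of the first kind changed sign with neither value past the threshold. Most of the 2020 values came from leaving out 1 library. The other settings held 29 of the lost calls, 25 of the gained ones and all 15 reversals. Causes were not tested. In SPF after aCD3, Gbp5 (-0.07 in TPM) was 0.32 with median-of-ratios scaling, 0.25 with quantile normalization, 0.27 without Rn45s and histone genes and 0.34 with voom; Gbp6 (-0.05) was 0.35, 0.30 without those genes and 0.37 with voom. In GF against SPF after aCD3, scaling and voom reversed Gbp5 (-0.26 and -0.29), Gbp4 (-0.068 and -0.073), Gbp6 (-0.35 and -0.37) and Igtp (-0.31 and -0.32). Without Rn45s and histone genes, Gbp2 (-0.50), Gbp8 (-1.36), Gbp3 (0.75) and Gbp7 (0.73) kept their SPF calls, and Gbp4 (-0.06) and Gbp9 (-0.22) did not.

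Counts of members called moved as follows. Requiring a log2 fold change of at least 1 left 1 of 6 in SPF (1940 of all genes), 0 of 1 in GF (99), 0 of 1 between isotype groups (49) and 1 of 4 between aCD3 groups (667). In GF (1 in TPM, with 862 of all genes called) the count was 0 with a pseudocount of 0.1, with no filter and from only the groups compared, where 0 of all genes were called, and 0 within either run, with 1 gene called in each. It was 2 with array weights (3636 genes) or a run term (2215), and 3 without the sex term (2472), so the members moved with the whole comparison. Between isotype groups (1, with 874 of all genes) it was 0 with scaling (204), quantile normalization (178) or voom (225), and 2 with array weights (1904) or only the groups compared (1812). Between aCD3 groups (4, with 6496) it was 2 with array weights (3680) or only the groups compared (4586). For the interaction (0, with 424 of all genes) it was 2 with scaling (1381) or without Rn45s and histone genes (908), 1 with quantile normalization (791) and 3 with voom (1846). With 1 library left out the counts ran from 6 to 7 in SPF, 0 to 4 in GF, 0 to 1 between isotype groups, 2 to 5 between aCD3 groups and 0 to 4 for the interaction. For GF the 4 came without GF aCD3 M4 (3859 of all genes), 3 without M3 (4213) and 2 without F1 (3630); between aCD3 groups the 2 came without GF aCD3 M3 (5301) or M4 (5373); the interaction gave 4 without GF aCD3 M5 (3187 of all genes), 3 without M2 (2491) and 1 without GF aCD3 M1 (2044), GF isotype M4 (425), SPF aCD3 F1 (278) or SPF isotype F3 (2070).

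The labels do not say whether replicate names pair the libraries. Deviations from group means of 32 same-named pairs had a median r of 0.012 (-0.208 to 0.198), and 5 exceeded 0.1. For 256 differently named pairs the median was 0.002 (-0.239 to 0.223), and 24 exceeded 0.1. Such values cannot tell whether same-named libraries shared a litter, cage or day. With the replicate block, 6 members were called in SPF (7794 of all genes), 0 in GF (0), 0 between isotype groups (658), 5 between aCD3 groups (5715) and 0 for the interaction (162). Members had 366 to 4820 reads each per library, and the part of counting error in their spread was not tested.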
